A study of Homo sapiens with 18 samples.

Results

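The transcripts described here are 12 rows, from 7 genes, of the 35246 Ensembl transcript rows measured by RNA sequencing in 22RV1 cells. The rows were chosen by transcript identifier, and all 12 were found in the table: 3 for ATF4, 3 for ASNS, 2 for XBP1 and 1 each for DDIT3, TRIB3, HSPA5 and GDF15. The 22RV1 line is an established cell line from human prostate cancer. The cells were grown in RPMI medium with fetal bovine serum and exposed for 20 to 24 hours to vehicle (DMSO) or to UT-143, the compound under test, at 10 µM, with 3 libraries in each group. The study's title describes the compounds it covers as cysteine-selective, irreversible covalent inhibitors of androgen receptor splice variants. Replicates are numbered in the labels, but whether a number stands for a culture of its own is not stated, and the p-values below may rest on technical spread alone. The other 12 samples of the series are ATAC-seq samples and were not analysed here.

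The integrated stress response and the unfolded protein response are linked defence programmes. In the first, stress-activated kinases phosphorylate the translation factor eIF2, which lowers protein synthesis in general but raises translation of the mRNA of ATF4, a transcription factor that switches on genes for amino acid supply and stress adaptation. In the second, sensors in the membrane of the endoplasmic reticulum (ER) respond to unfolded proteins; one of these sensors is the kinase PERK, which also feeds into ATF4, IRE1 splices the XBP1 mRNA, and ATF6 drives the chaperone gene HSPA5. Secretory epithelia such as that of the prostate depend on this folding machinery.

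The start-site regions of 3 of these genes are shown because each holds a known response element of one of the programmes. The 250 bases before the annotated start were taken from RefSeq (GRCh38.p14), in which all 7 genes were matched by symbol, and are written 5′ to 3′ on the gene's strand. Capitals mark the fixed letters of 3 motifs searched on both strands: the ER stress response element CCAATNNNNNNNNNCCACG, the C/EBP-ATF response element TGATGNAA, and the core TGACGT of the cyclic AMP response element.
HSPA5, chr9:125241344-125241593, minus strand: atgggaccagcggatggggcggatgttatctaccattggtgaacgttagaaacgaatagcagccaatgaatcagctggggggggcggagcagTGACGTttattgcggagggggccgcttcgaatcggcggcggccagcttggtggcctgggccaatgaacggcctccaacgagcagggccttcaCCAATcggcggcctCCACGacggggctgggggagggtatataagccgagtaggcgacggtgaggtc
XBP1, chr22:28800570-28800819, minus strand: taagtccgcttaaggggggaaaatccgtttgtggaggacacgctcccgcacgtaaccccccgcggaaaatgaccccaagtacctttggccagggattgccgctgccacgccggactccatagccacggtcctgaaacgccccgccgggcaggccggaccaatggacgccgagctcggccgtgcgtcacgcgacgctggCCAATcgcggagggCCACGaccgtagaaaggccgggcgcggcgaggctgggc
ASNS, chr7:97872409-97872658, minus strand: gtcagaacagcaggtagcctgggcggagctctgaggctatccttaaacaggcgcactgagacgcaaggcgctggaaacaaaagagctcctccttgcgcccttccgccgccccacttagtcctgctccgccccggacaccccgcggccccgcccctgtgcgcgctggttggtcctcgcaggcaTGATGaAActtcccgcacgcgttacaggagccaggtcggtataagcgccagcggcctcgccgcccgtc

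The ER stress response element lay at bases -66 to -48 of the 1 HSPA5 window and at -52 to -34 of 1 of the 2 XBP1 windows, counting the base just before the start as -1. Over all 35116 start windows of 300 bases (250 before to 50 after the start), 27 windows (0.0769%) held it. The C/EBP-ATF response element was found in 1 of the 2 ASNS windows, at bases -68 to -61, and in 3.62% of all windows. HSPA5 also held the TGACGT core at bases -158 to -153, against 7.98% of all windows. The windows of ATF4, DDIT3, TRIB3 and GDF15 held no exact match to any of the 3 motifs. Only exact matches inside the windows were counted. A near match was not, such as ccaatgccggcgtgccact in DDIT3, which differs from the ER stress response element in its last base. These windows therefore do not show that a gene lacks such an element. A match describes the sequence and is not a measured binding site, and the start used by each deposited transcript was not given.

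Values were CPM (counts scaled to a common library total) rounded to whole numbers by the authors. The values of a library summed to 889253 to 892558 in the vehicle group and to 896070 to 923170 in the UT-143 group, and the depth in reads is unknown. UT-143 replicate 3 stood apart from the other 5 libraries: across all rows its log2(CPM + 1) values correlated at 0.816 to 0.895 with those of the others, whose correlations with each other were 0.953 to 0.993. Values of at most 5 CPM made up 6674 of its rows and 2049 to 2868 of the rows of every other library. The changes below are therefore given with and without it. Medians and sizes of the change over rows, ranks over the table and overlap of groups are given for all 6 libraries only. Rows were compared with limma on log2(CPM + 1), with Benjamini-Hochberg adjustment over all 35246 rows and a threshold of 0.05. On this scale a change is a difference of mean log2 values, UT-143 minus vehicle, and it slightly understates the change of low rows.

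After UT-143, the transcript of the ER chaperone HSPA5 was lower in each of the 3 libraries than in each vehicle library, and those of the stress cytokine GDF15 and the pseudokinase TRIB3 were higher. Groups that did not overlap were common: 35.4% of all rows had them, 13.1% with higher and 22.3% with lower UT-143 values. Lack of overlap alone thus does not set these 3 rows apart. The ATF4 mRNA itself, the ATF4 target ASNS, the death-promoting factor DDIT3 (CHOP) and XBP1 did not pass the test. Of the 12 rows, 2 rose and 1 fell at an adjusted p under 0.05 (limma, n = 3 per group). Over all rows, 3.37% were called, 1.29% higher and 2.08% lower. Without UT-143 replicate 3 the same 3 of the 12 rows were called in the same direction. In that fit 23.3% of all rows were called (8.65% higher and 14.6% lower), a share close to that of the 12 rows. With all 6 libraries, the median change was 0.041 over the 12 rows and -0.058 over all rows. The median size of the change, regardless of sign, was 0.058 over the 12 rows and 0.26 over all rows. A size below that median of all rows was seen in 7 of the 12 rows and, by definition, in 17623 of all 35246 rows. These 7 were the ATF4 and ASNS rows and 1 XBP1 row, so they stand for few genes. They stood at 47 CPM or more in every library, while the median over all rows was 11 to 13 CPM by library. Whether other rows of like level changed as little was not tested. A change of at least 1 in size was seen in 2 of the 12 rows and in 907 of all rows (2.57%). Rows of one gene share sequence, so the 12 rows are not 12 independent measurements.

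**Figure D1:**
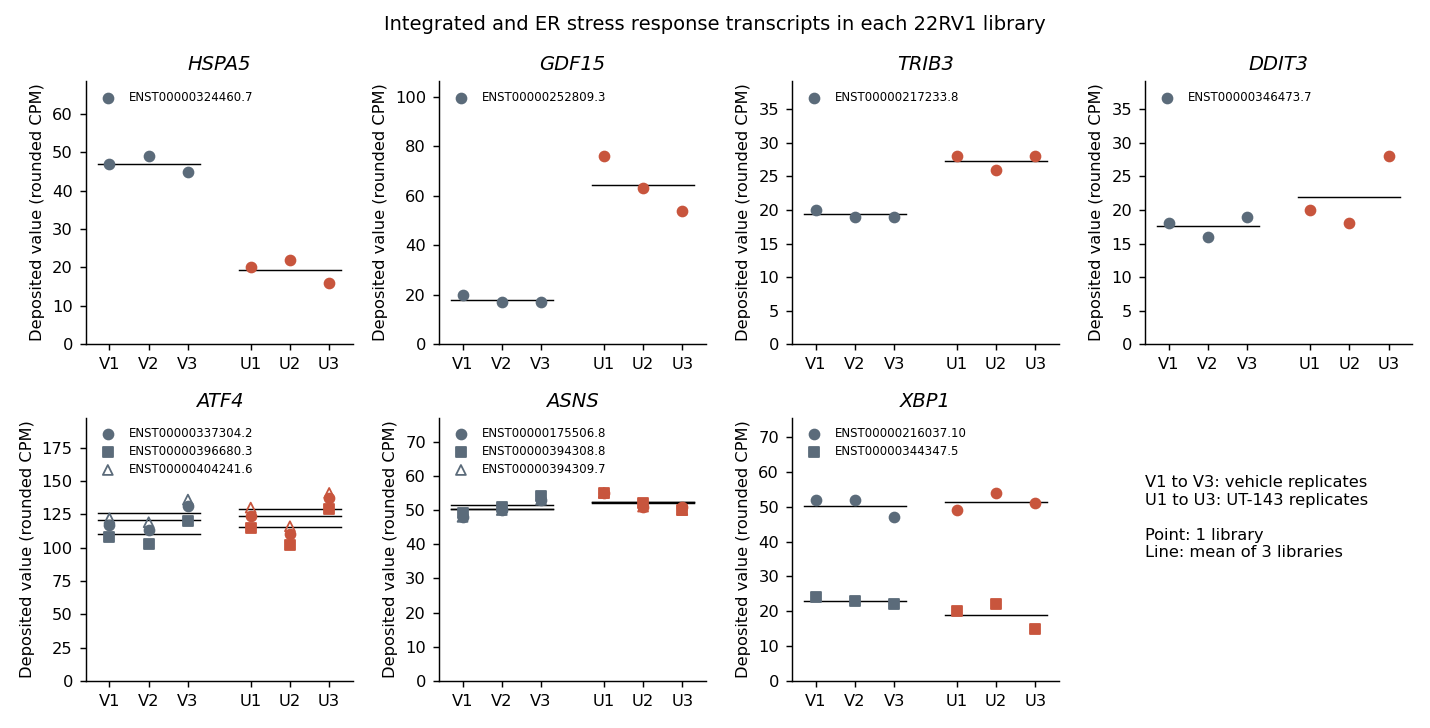
Deposited values (vertical axis, CPM rounded to whole numbers, from 0) of the 12 transcripts in each library, 1 panel per gene; grey points are vehicle replicates (V1 to V3), red points UT-143 replicates (U1 to U3), and lines the mean of 3 libraries. HSPA5 fell from 45 to 49 CPM to 16 to 22 CPM, GDF15 rose from 17 to 20 CPM to 54 to 76 CPM, and the groups of ATF4, ASNS, DDIT3 and XBP1 overlapped.

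HSPA5 (BiP, GRP78; chr9:125234853-125241343) is the main chaperone of the Hsp70 class in the ER and holds the ER stress sensors inactive until unfolded proteins draw it away. Its transcript ENST00000324460.7 stood at 47, 49 and 45 CPM in vehicle replicates 1 to 3 and at 20, 22 and 16 CPM in UT-143 replicates 1 to 3. All 3 treated libraries lay far below the vehicle libraries, and UT-143 replicate 3 was the lowest. The mean went from 47.0 ± 2.0 to 19.3 ± 3.1 CPM (SD, n = 3 each), a ratio of 0.411, and rounding of the values could place that ratio anywhere from 0.397 to 0.427. The change on the log2(CPM + 1) scale was -1.25 with a standard error of 0.13 (95% confidence interval -1.57 to -0.93; limma, adjusted p = 0.027). Counted over the whole table, 233 rows including HSPA5 fell by as much or more. Without UT-143 replicate 3 the change was -1.13 (95% confidence interval -1.30 to -0.95; limma, adjusted p = 0.0044). In RNA from a bulk culture, fewer cells with the transcript and less of it per cell cannot be told apart.

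GDF15 (chr19:18386158-18389176) encodes a secreted cytokine of the transforming growth factor beta superfamily, known as a target of ATF4 and CHOP and also of p53. It showed the largest change of the 12 rows. Its transcript ENST00000252809.3 stood at 20, 17 and 17 CPM in vehicle replicates 1 to 3 and at 76, 63 and 54 CPM in UT-143 replicates 1 to 3. The lowest treated library was well above the highest vehicle library, and the treated libraries were more spread out than the vehicle ones. The mean went from 18.0 ± 1.7 to 64.3 ± 11.1 CPM (SD, n = 3 each), which is 3.57 times the vehicle mean, with 3.45 to 3.70 as the limits set by rounding. The change was 1.77 with a standard error of 0.15 (95% confidence interval 1.41 to 2.13; limma, adjusted p = 0.027). Counted over the whole table, 8 rows including GDF15 rose by as much or more. Without UT-143 replicate 3 the change was 1.89 (95% confidence interval 1.55 to 2.23; limma, adjusted p = 0.0058).

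TRIB3 (chr20:380760-397559) encodes a pseudokinase that is induced by ATF4 and CHOP and feeds back to restrain ATF4. Its transcript ENST00000217233.8 stood at 20, 19 and 19 CPM in vehicle replicates 1 to 3 and at 28, 26 and 28 CPM in UT-143 replicates 1 to 3. The values were tight in both groups and did not overlap, and UT-143 replicate 3 sat with the other treated libraries. The mean went from 19.3 ± 0.6 to 27.3 ± 1.2 CPM (SD, n = 3 each), 1.41 times the vehicle mean, with 1.35 to 1.48 as the limits set by rounding. The change was 0.48 with a standard error of 0.081 (95% confidence interval 0.28 to 0.68; limma, adjusted p = 0.043). The TRIB3 call was the closest to the threshold: with limma's robust moderation its adjusted p was 0.051. Counted over the whole table, 2184 rows including TRIB3 rose by as much or more, and 78.6% of all rows changed by a smaller size in either direction. Without UT-143 replicate 3 it was 0.46 (95% confidence interval 0.33 to 0.60; limma, adjusted p = 0.011).

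The HSPA5, GDF15 and TRIB3 calls held without UT-143 replicate 3 but not without any other 1 library. Leaving out any 1 of vehicle replicates 1, 2 and 3 or UT-143 replicates 1 and 2 ended all 3 calls in limma, with adjusted p of 0.12 to 0.21 for HSPA5 and GDF15 and 0.12 to 0.24 for TRIB3. In those 5 fits 0 of all rows passed, while 5080 to 9271 rows had an unadjusted p under 0.05. The loss of calls was therefore not particular to these 3 rows. Their unadjusted p in the same limma fits was 1.9e-04 to 8.8e-04 for HSPA5, 8.0e-05 to 3.9e-04 for GDF15 and 0.0027 to 0.0069 for TRIB3. The changes themselves moved little, to -1.34 to -1.22 for HSPA5, 1.65 to 1.85 for GDF15 and 0.46 to 0.51 for TRIB3. HSPA5, GDF15 and TRIB3 were also the only 3 of the 12 rows with groups that did not overlap. Over all rows, 13.1% did not overlap with higher UT-143 values and 22.3% with lower ones, 35.4% together. The authors' deposited table gives unadjusted p-values of 4.6e-04 for HSPA5, 0.017 for GDF15 and 0.0019 for TRIB3.

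ATF4 (chr22:39520559-39522686) is the central transcription factor of the integrated stress response, and its activity is set largely by translation of its mRNA, which RNA sequencing does not measure. ENST00000404241.6, the ATF4 row with the highest mean, stood at 122, 119 and 136 CPM in vehicle replicates 1 to 3 and at 130, 116 and 141 CPM in UT-143 replicates 1 to 3. The groups overlapped, with the lowest value in a treated library and the highest in another. The other 2 ATF4 rows gave 103 to 131 CPM in vehicle and 102 to 137 CPM after UT-143, and the highest and lowest of the 3 rows were 12 to 16 CPM apart in every library. The changes of the 3 rows were 0.035 to 0.060 with 6 libraries and -0.040 to -0.024 without UT-143 replicate 3. Without vehicle replicate 2 the change was -0.0073 for ENST00000337304.2, 0.012 for ENST00000396680.3 and -0.0024 for ENST00000404241.6. The sign of these small differences thus depended on which libraries were used. It also turned negative for all 3 rows under quantile normalization of the values. For ENST00000404241.6 the 95% confidence interval of the change was -0.24 to 0.31 (limma, adjusted p = 0.84), and the intervals of the other 2 rows reached from -0.25 to 0.35.

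ASNS (chr7:97851677-97928441), asparagine synthetase, makes asparagine and is a well-known ATF4 target through the response element shown above. ENST00000394308.8 stood at 49, 51 and 54 CPM in vehicle replicates 1 to 3 and at 55, 52 and 50 CPM in UT-143 replicates 1 to 3. The groups overlapped almost fully. The other 2 ASNS rows were within 1 CPM of it throughout, and how reads shared by such rows were counted is not given in the sources used here. The changes of the 3 rows were 0.027 to 0.055, with 95% confidence intervals that ran from -0.18 to 0.26 in all (limma, adjusted p = 0.67 to 0.84). The changes were 0.059 to 0.073 without UT-143 replicate 3 (limma, adjusted p = 0.42 to 0.48). A change of the size seen for GDF15 or HSPA5 lay outside these intervals.

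DDIT3 (CHOP; chr12:57516588-57520517) is a transcription factor that acts downstream of ATF4 and promotes cell death under lasting ER stress. Its transcript ENST00000346473.7 stood at 18, 16 and 19 CPM in vehicle replicates 1 to 3 and at 20, 18 and 28 CPM in UT-143 replicates 1 to 3. Only UT-143 replicate 3 was clearly above the vehicle libraries, and UT-143 replicate 2 equalled vehicle replicate 1. The mean was 17.7 ± 1.5 CPM in vehicle and 22.0 ± 5.3 CPM after UT-143 (SD, n = 3 each). The change was 0.28 (95% confidence interval -0.15 to 0.71; limma, adjusted p = 0.33), and without UT-143 replicate 3 it was 0.10 (95% confidence interval -0.16 to 0.36; limma, adjusted p = 0.47). The difference in DDIT3 thus rested on the library that stood apart, and whether the overall deviation of that library has a part in it was not tested.

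XBP1 (chr22:28794560-28800569) encodes a transcription factor of the unfolded protein response whose mRNA is cut and rejoined by the sensor IRE1 under ER stress. ENST00000216037.10 stood at 52, 52 and 47 CPM in vehicle replicates 1 to 3 and at 49, 54 and 51 CPM in UT-143 replicates 1 to 3, a change of 0.028 (95% confidence interval -0.19 to 0.25; limma, adjusted p = 0.84). The groups overlapped, and without UT-143 replicate 3 the change was 0.032 (95% confidence interval -0.17 to 0.24; limma, adjusted p = 0.78). ENST00000344347.5 stood at 24, 23 and 22 CPM in vehicle and at 20, 22 and 15 CPM after UT-143. Its change was -0.28 (95% confidence interval -0.65 to 0.088; limma, adjusted p = 0.28), and -0.13 (95% confidence interval -0.30 to 0.046; limma, adjusted p = 0.22) without UT-143 replicate 3.

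The 2 XBP1 rows were also compared with each other, a comparison chosen after their values had been seen. The ratio of ENST00000344347.5 to ENST00000216037.10 was 0.462, 0.442 and 0.468 in vehicle replicates 1 to 3 and 0.408, 0.407 and 0.294 in UT-143 replicates 1 to 3. It was lower in all 3 treated libraries, most of all in UT-143 replicate 3. On the log2(CPM + 1) scale the difference between the rows changed by -0.31 (2-sided exact permutation test, p = 0.1, the smallest that 3 against 3 libraries allow). It changed by -0.16 without UT-143 replicate 3 (2-sided exact permutation test, p = 0.2, the smallest that 3 against 2 libraries allow). Which of the rows holds the IRE1-spliced form is not given in the sources used here, so these values are no measure of splicing.

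**Figure D2:**
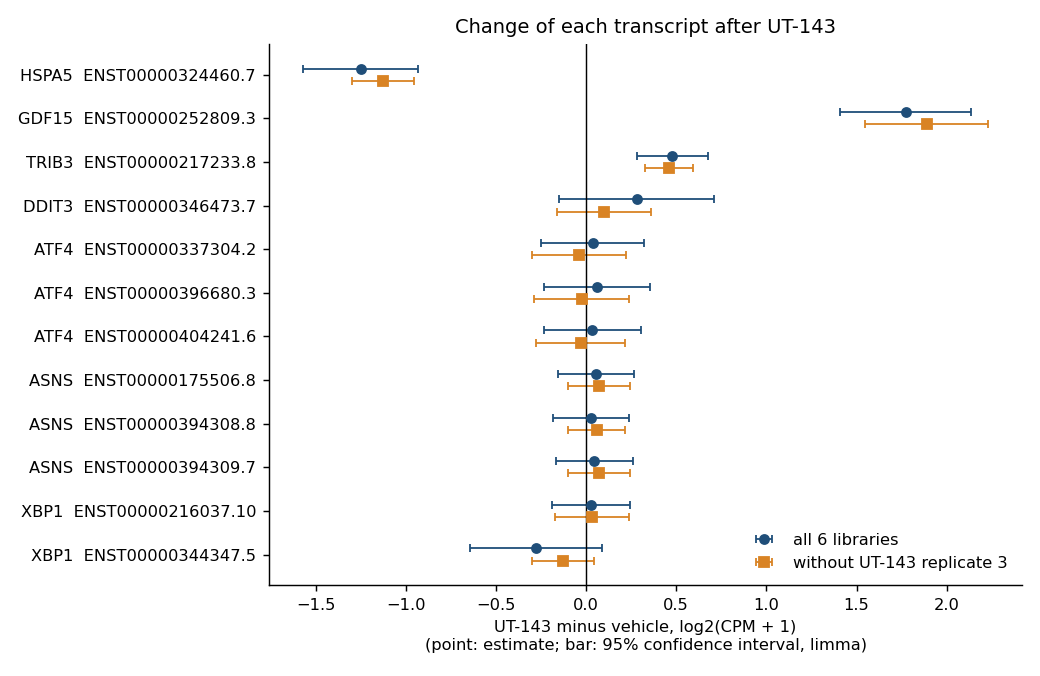
Change of each transcript (horizontal axis, UT-143 minus vehicle on the log2(CPM + 1) scale) with its 95% confidence interval from limma, with all 6 libraries (blue circles) and without UT-143 replicate 3 (orange squares). The intervals of HSPA5, GDF15 and TRIB3 lie away from 0 in both fits, and those of the other 9 rows include 0.

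**Figure D3:**
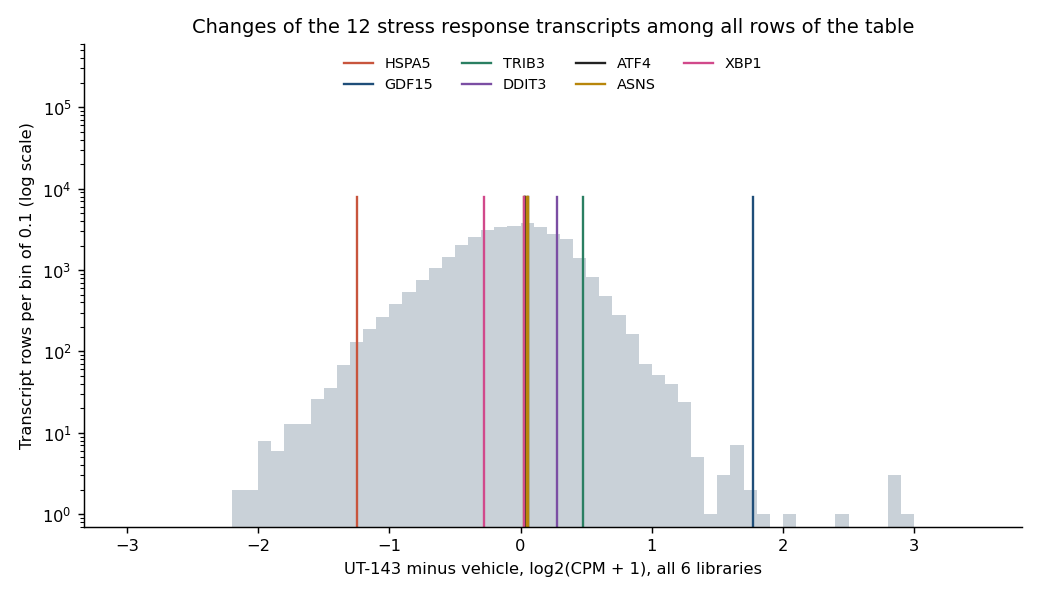
Number of transcript rows (vertical axis, log scale) in bins of the change after UT-143 (horizontal axis, UT-143 minus vehicle on the log2(CPM + 1) scale, 6 libraries), with coloured lines at the 12 rows described. HSPA5 at -1.25 and GDF15 at 1.77 lie in the outer tails, TRIB3 at 0.48 on the upper flank, and the ATF4 and ASNS rows and 1 XBP1 row near 0.

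The change of HSPA5 was then compared with that of each other gene, as the difference of their log2(CPM + 1) values within a library. Genes with several rows entered with the row of highest mean. Against ATF4, HSPA5 stood at -1.36, -1.26 and -1.57 in vehicle replicates 1 to 3 and at -2.64, -2.35 and -3.06 in UT-143 replicates 1 to 3. The treated libraries lay below all vehicle libraries, and the same held against ASNS, DDIT3, TRIB3, XBP1 and GDF15. The difference changed by -1.28 against ASNS and XBP1, by -1.29 against ATF4, by -1.53 against DDIT3, by -1.73 against TRIB3 and by -3.02 against GDF15. Each of these 6 comparisons gave p = 0.1 in a 2-sided exact permutation test and 0.1 after Benjamini-Hochberg adjustment over the 6, which is the smallest value 3 against 3 libraries allow. When UT-143 replicate 3 was left out, the changes were -1.10 against ATF4, -1.19 against ASNS, -1.16 against XBP1, -1.23 against DDIT3, -1.59 against TRIB3 and -3.02 against GDF15, each with p = 0.2, the smallest the exact permutation test allows for 3 against 2 libraries. The 6 comparisons share the HSPA5 values and are not independent. Against GDF15 and TRIB3 the separation was fixed by the values above, since HSPA5 fell and both rose without overlap. It was also fixed against DDIT3, ATF4, ASNS and XBP1, whose groups overlapped by less than the gap between the HSPA5 groups. That gap ran from 45 CPM, the lowest vehicle value, to 22 CPM, the highest UT-143 value. The ATF4, ASNS and XBP1 rows used here changed by 0.027 to 0.035, so against them the difference mostly restates the fall of HSPA5.

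**Figure D4:**
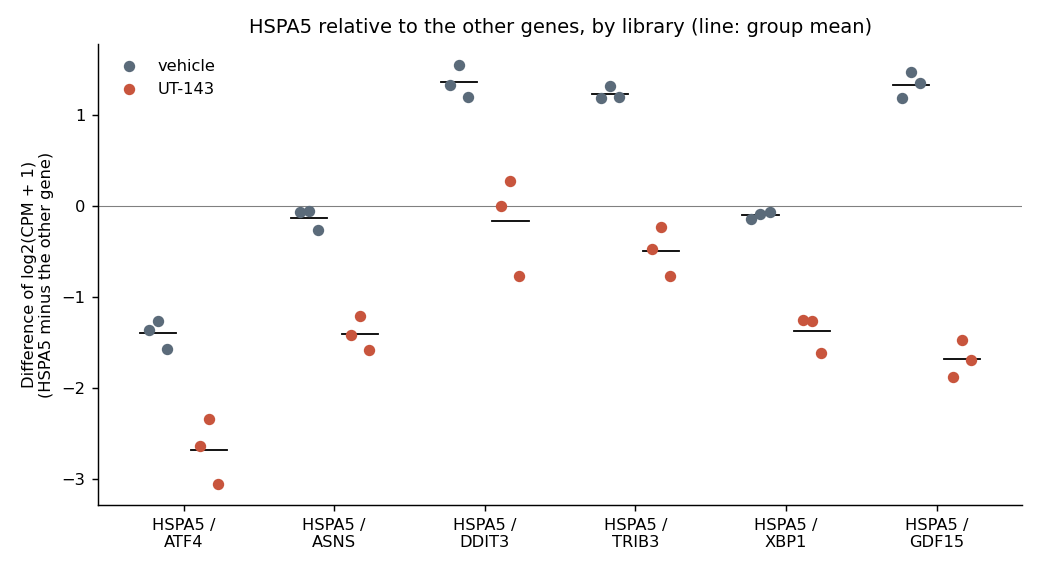
HSPA5 relative to each of the other 6 genes in every library (vertical axis, HSPA5 minus the other gene on the log2(CPM + 1) scale); grey points are vehicle libraries, red points UT-143 libraries and lines group means. The red points lie below the grey points in every pair, with the widest gap, a change of -3.02, against GDF15.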

How the data were processed

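RNA from 6 libraries of 22RV1 cells, 3 vehicle and 3 UT-143, was analysed. The deposited table, named CPM by the authors, holds whole numbers per transcript and was treated as a normalized score rounded by the authors, not as read numbers: replicate values differ far less than read numbers would (median variance over mean in vehicle, 0.071). Rows that sum to less than 30 are not listed. The deposited ratio of means, signed ratio and p-value per row are the authors' own. FastQC, STAR 2.7.10a, HOMER and build hg38 are named in the submitters' processing notes. The counting per transcript and any use of strand: not given in the sources used here. No per-sample column was left unmatched.

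The gene names of the 12 rows came with the list of members. Neither reference table with gene names held any of the 35246 identifiers, so the names were not tested here, other genes of the pathways and markers of 22RV1 were not counted, and rows with a similar pattern were not named. The members and lists were chosen with earlier results of these data known. All 12 rows are described, whether called or not.

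Values were transformed as log2(CPM + 1) and fitted with limma 3.58.1 in R 4.3.3 (group as the only term, empirical Bayes with a mean-variance trend), keeping rows that reached 1 CPM in at least 3 libraries, as all rows did. The fit was also run on simulated data built from the means and spread of the vehicle libraries. No simulated library stood apart as UT-143 replicate 3 does, so that run does not cover this feature of the data. Exact permutation tests used SciPy 1.17.1, and plots Matplotlib 3.10.9. Alternatives were other pseudocounts, filters, scalings and moderation, a replicate block, and each library left out.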

Additional observations from a re-analysis of the deposited data

How the results depend on the processing

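The 2 rises (GDF15, TRIB3) and 1 fall (HSPA5) were called again with pseudocounts of 0.25 and 4, with no filter, in rows with a mean of at least 20 CPM (which leaves out DDIT3), without the mean-variance trend and under trimmed mean, median-of-ratios and quantile scaling. Robust moderation left 1 rise, since TRIB3 missed the threshold. Leaving out libraries gave 0 to 2 rises and 0 to 1 falls, with 0 of each unless the library was UT-143 replicate 3. With the replicate block 0 rises and 0 falls passed in limma (adjusted p = 0.17 for HSPA5, GDF15 and TRIB3), while 7941 rows of the table were under 0.05 before adjustment. Nothing in the labels ties equal numbers together. The deviations of same-numbered libraries from their group means correlated at -0.41, 0.52 and 0.039 for numbers 1, 2 and 3. Only number 2 matched best with itself. UT-143 replicate 3 stands apart and shifts the mean of its group, so the deviation of every UT-143 library carries its difference. These correlations therefore cannot show whether same-numbered libraries belong together.

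Rows that did not pass the test changed sign in some fits. Quantile normalization gave -0.066, -0.037 and -0.064 for ATF4 ENST00000337304.2, ENST00000396680.3 and ENST00000404241.6. Leaving out libraries gave -0.040 to 0.12, -0.024 to 0.14 and -0.031 to 0.11 for the same rows, -0.0084 to 0.064 for ASNS ENST00000394308.8 and -0.019 to 0.061 for XBP1 ENST00000216037.10. Without UT-143 replicate 3 and with trimmed mean scaling, ATF4 ENST00000337304.2 changed by -0.0050. The cause was not tested. Rounding to whole numbers limits the rows near 20 CPM.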
